A study of Homo sapiens with 6 samples.

Results

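The genes described here encode the contractile and cross-linking machinery of actin filaments and the adaptors that tie these filaments to sites of adhesion. Their 9 names, MYH9, MYH10, ACTN1, ACTN4, FLNA, FLNC, VCL, SVIL and ZYX, were given as a list and looked up by Ensembl identifier and Gencode symbol. The list was chosen with earlier results of these data known. Of the 9 genes, 8 have values among the 19198 genes of the table, and FLNC is not analysed here. MCF10A is an immortalized, non-tumorigenic line of human mammary epithelial cells. RNA-Seq was carried out on 6 samples of these cells, 3 in control medium and 3 in growth factor-depleted medium, and every sample was cultured with 5% horse serum, penicillin, streptomycin and glutamine. Control medium also held 4 additions that depleted medium lacked, namely hydrocortisone at 0.5 µg/ml, cholera toxin at 100 ng/ml, EGF at 20 ng/ml and insulin at 10 µg/ml, and cells were collected at 80% confluence. The comparison asks how loss of these factors, a treatment used to induce epithelial to mesenchymal transition (EMT), alters RNA levels. The study's methods keep cells in depleted medium until their shape changes, within a stated maximum, but the time for these RNA samples is not given. The labels name 3 samples per group, while the series' design text speaks of 2 replicates and 6 samples, and the labels were followed. Nothing states that samples of a group came from separate cultures, so p-values measure the spread between these samples only.

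Non-muscle myosin II pulls on actin filaments through heavy chains encoded by MYH9, MYH10 and MYH14, and its light chains set whether the motor is active. Alpha-actinins (ACTN1, ACTN4) bundle actin into stress fibers, and filamins (FLNA, FLNC) join filaments into networks and link them to integrins. Vinculin (VCL) strengthens the link between talin and actin at focal adhesions, zyxin (ZYX) is a LIM protein that is recruited to tensed adhesions and stress fibers, and supervillin (SVIL) is a gelsolin-villin family protein that binds both myosin II and the membrane. Several of these genes are known targets of serum response factor (SRF), which binds a DNA element called the CArG box together with actin-regulated MRTF cofactors.

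The promoters of these genes were searched for this element with the results known, and the windows that hold it are shown. Binding of SRF was not measured, and the part of SRF in the values of these genes was not tested. RefSeq promoter windows on GRCh38.p14, from 250 bases before to 50 bases after each annotated start, were read on the gene's strand for all 8 genes, 15 windows in total. A CArG box was found in 1.29% of the 35116 windows of all genes, and in 3 of the 15 windows, at the single start of FLNA and at 1 of 4 starts each of ACTN1 and SVIL. Each sequence runs 5′ to 3′, and capitals mark the CArG box.
FLNA, chrX:154374585-154374884, minus strand: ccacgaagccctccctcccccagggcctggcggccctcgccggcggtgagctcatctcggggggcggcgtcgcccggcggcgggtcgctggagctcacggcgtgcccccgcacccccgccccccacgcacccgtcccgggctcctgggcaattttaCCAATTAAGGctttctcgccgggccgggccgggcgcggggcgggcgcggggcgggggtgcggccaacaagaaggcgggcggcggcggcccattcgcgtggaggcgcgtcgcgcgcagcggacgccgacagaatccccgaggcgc
ACTN1, chr14:68977517-68977816, minus strand: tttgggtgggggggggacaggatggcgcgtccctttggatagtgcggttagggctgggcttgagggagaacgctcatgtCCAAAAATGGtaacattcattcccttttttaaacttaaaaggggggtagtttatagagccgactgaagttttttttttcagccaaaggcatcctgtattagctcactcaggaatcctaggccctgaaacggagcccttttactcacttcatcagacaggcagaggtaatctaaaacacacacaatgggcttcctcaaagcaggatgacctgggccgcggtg
SVIL, chr10:29634922-29635221, minus strand: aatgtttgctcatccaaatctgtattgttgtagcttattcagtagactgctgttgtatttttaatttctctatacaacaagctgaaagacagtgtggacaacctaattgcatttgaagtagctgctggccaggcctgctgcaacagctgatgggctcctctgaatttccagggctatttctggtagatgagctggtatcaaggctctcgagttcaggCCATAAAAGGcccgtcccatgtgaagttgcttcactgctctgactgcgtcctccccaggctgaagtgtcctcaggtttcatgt

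The first base of the CArG box lay 94 bases before the start in FLNA, 171 in ACTN1 and 33 in SVIL. Reads were counted per gene, so the start used in these cells is not known. Other short motifs were searched on both strands of the same windows. GGGCGG, the core bound by Sp and Krüppel-like factors, was present in 11 of the 15 windows and in 45.0% of all windows. TGTGGT, a RUNX core sequence, was found in 1 window each of MYH10 and ACTN4 (13.1% of all windows), and GGAATG, a TEAD core sequence, in 4 of the 15 windows (14.0% of all). These matches describe the letters in the windows and not binding.

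RNA levels are given as normalized counts, the reads of a gene divided by the sample's size factor, and are not divided by transcript length. Depth was 7472418 to 28672630 reads on genes per sample, and 3 reads, taken as the floor of detection, corresponded to 1.76 to 6.71 normalized counts (counting error only). All 8 genes were far above this floor, with 539 to 120927 reads per sample. Of 10 markers of luminal mammary epithelium, the cell type in the label, 8 have values here, including KRT8 and KRT18 in every sample. Only 1 of them, KRT19, was called, and it was lower in depleted cells. The others differed in direction. Ratios of depleted to control means were 1.98 for KRT8, 2.01 for KRT18, 1.23 for KRT7, 0.726 for EPCAM and 0.761 for GATA3, with overlapping groups. For ESR1 and FOXA1 the ratios were 0.138 and 0.603, and the highest depleted value lay under the lowest control value. All 6 basal markers have values, and TP63 and LAMA3 were lower in depleted cells. KRT5, KRT14, KRT17 and ITGB4 were not called and differed in direction, with ratios of depleted to control means of 0.412, 4.41, 6.43 and 0.871. For KRT17 every depleted sample was above every control sample, while the groups overlapped for KRT5, KRT14 and ITGB4. Of 10 mesenchymal or fibroblast markers, all 10 were higher in depleted cells. Of these, LUM, PDGFRA and PDGFRB had control means of 1.58, 0.941 and 6.95, under the minimum mean of 10 for testing. They were tested only because their depleted values were high, so they could be called only higher. Summed over the list, the control samples held 3962 to 11449 normalized counts and the depleted samples 136513 to 206269, and LUM and PDGFRA were at or under the floor in every control sample. A smooth muscle list gave 719 to 1711 in control and 2774 to 8027 in depleted samples over the 4 of 6 markers with values, of which ACTA2 was higher. CNN1 was not called. It was at or under the floor in every control sample and had 2.75, 294 and 501 normalized counts in depleted replicates 1 to 3. SMTN was not called (ratio of means 1.07), and MYH11 was under the minimum mean for testing. Of 5 endothelial markers, 4 have values, and CDH5 was higher in depleted cells, although the sum of the list overlapped between groups (167 to 1787 against 265 to 1610 normalized counts). KDR was not called, but its depleted values (0, 24.9 and 22.4) were all below its control values (778, 32.2 and 66.9). PECAM1 was not called, with overlapping groups, and VWF was under the minimum mean for testing. CDH5 also passed the minimum mean only through the depleted samples (control mean 5.93). Of 5 leukocyte markers, 2 have values. CD14 was not called, PTPRC was under the minimum mean for testing and at or under the floor in every control sample, and their sums were 272 to 884 and 86.5 to 656. The part of these markers in the results below was not tested. In bulk RNA, a change in the number of cells of one type and a change in RNA per cell cannot be told apart.

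Growth factor depletion raised the RNA of most of these genes. MYH9, ACTN1, FLNA, VCL and SVIL were up-regulated by 3.22-fold to 5.58-fold, and none of the 8 genes was down-regulated. The threshold was a limma p under 0.05 after Benjamini-Hochberg adjustment over the 16988 genes tested, together with a change of at least 2-fold. By this rule 5 of the 8 genes were called higher and 0 lower, where 4.36% of all genes tested were called higher and 1.97% lower. At an unadjusted p under 0.05, limma, edgeR and DESeq2 each placed 7 of the 8 genes higher and 0 lower, where 11.4%, 11.6% and 12.0% of all genes tested were higher by the same measure. For 7 of the 8 genes the lowest depleted value exceeded the highest control value, against 13.5% of all genes tested. The median log2 difference, depleted minus control, was 1.86 for the 8 genes and -0.03 for all genes tested. The quasi-likelihood test of edgeR on whole reads recovered from the values called the same 5 genes higher (4.02% of all genes), and DESeq2 called 7 (7.58% of all genes).

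**Figure D1:**
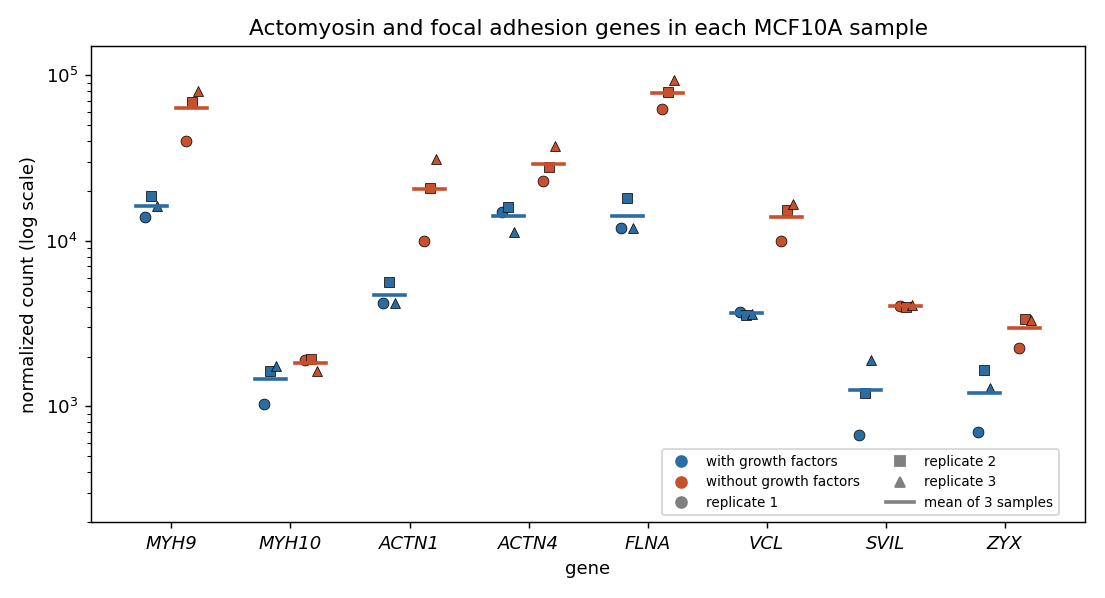
Normalized counts (log axis) of the 8 genes in each of the 3 samples with growth factors (blue) and the 3 without (orange), with replicates marked by shape and a bar at the mean of 3 samples. Only MYH10 has groups that overlap, and depleted replicate 1 is the lowest depleted sample for MYH9, ACTN1, ACTN4, FLNA, VCL and ZYX.

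These calls rested on few samples. With 1 sample left out, limma called 5 of the 8 genes higher without control replicate 3, 4 without depleted replicate 1, 2 without control replicate 2, 1 without control replicate 1 and 0 without depleted replicate 2 or depleted replicate 3. In the same order, 1379 of 16662, 639 of 16933, 506 of 17151, 486 of 17142, 307 of 16913 and 334 of 16966 genes tested were called higher. In each of the fits that gave 0, 6 of the 8 genes were higher at an unadjusted p under 0.05, against 8.40% of all genes without depleted replicate 2 and 7.92% without depleted replicate 3, and edgeR and DESeq2 were not run on them. The log2 difference of every one of the 8 genes stayed positive in all 20 alternatives.

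Together the 8 genes took 0.281%, 0.395% and 0.346% of all reads on genes in control replicates 1 to 3, with 95% Wilson intervals of 0.278% to 0.284%, 0.393% to 0.397% and 0.343% to 0.349%. In depleted replicates 1 to 3 they took 0.984%, 1.38% and 1.60%. FLNA alone held 0.0660% to 0.108% of control reads and 0.401% to 0.557% of depleted reads. These shares are ratios within a sample and do not depend on the size factors, and their intervals cover counting error only.

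Among the motor genes, MYH9 encodes the heavy chain of non-muscle myosin IIA and lies on chromosome 22 of hg38 from 36281280 to 36388010 (minus strand, 41 exons in the canonical transcript of 7451 bases). Normalized counts were 13862, 18601 and 16258 for control replicates 1 to 3, against 40001, 69186 and 80717 for depleted replicates 1 to 3. Every depleted sample was more than double the highest control sample. The means were 16241 ± 2370 and 63301 ± 20986 (SD, n = 3 each), a ratio of 3.9, and the log2 difference was 1.91 (standard error 0.46, limma adjusted p = 0.0461). This adjusted p is close to the threshold, and it ranged from 5.8e-06 to 0.209 over the 20 alternatives.

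MYH10, the heavy chain of non-muscle myosin IIB, which has slower motor kinetics than IIA, lies on chromosome 17 from 8474207 to 8631376. Its control values were 1034, 1636 and 1750 normalized counts, and its depleted values 1908, 1926 and 1630. The depleted sample with the lowest count was below control replicates 2 and 3, so the groups overlapped. The log2 difference was 0.34 (standard error 0.29, limma adjusted p = 0.598), and MYH10 was the only one of the 8 genes not past an unadjusted p of 0.05.

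MYH14, the third non-muscle heavy chain gene, was near the floor in control cells, at 2.51, 2.34 and 0 normalized counts, and had 15.6, 75.4 and 119 in depleted cells. It was called higher (limma adjusted p = 0.0232), but it passed the minimum mean of 10 only through its depleted samples and could be called only higher. MYH14 remained far below the other heavy chains. Per kilobase of transcript, the depleted means were 8496 normalized counts for MYH9, 236 for MYH10 and 10.1 for MYH14. MYH9 was thus the most abundant of these heavy chains in every sample.

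The cross-linker ACTN1 lies on chromosome 14 from 68874128 to 68979440 (minus strand). Control cells held 4186, 5654 and 4198 normalized counts of ACTN1 RNA and depleted cells 10019, 20877 and 31051. All depleted samples were above all control samples, but they varied more among themselves (coefficient of variation 50.9%) than those of any other of the 8 genes. The ratio of means was 4.41, with a log2 difference of 2.01 (standard error 0.45, limma adjusted p = 0.0362).

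ACTN4, on chromosome 19 from 38647649 to 38731589, encodes the other non-muscle alpha-actinin. Its normalized counts were 14910, 15923 and 11258 with growth factors and 22906, 27709 and 37190 without. The groups did not overlap and the means differed by 2.09-fold, but the log2 difference of 1.05 (standard error 0.39) had a limma adjusted p of 0.177 and was not called.

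FLNA, the filamin on chromosome X from 154348524 to 154374634 whose promoter is shown above, had the largest difference of the 8 genes. It had 12005, 18080 and 11992 normalized counts in control cells and 62503, 79287 and 93120 in depleted cells. The lowest depleted sample was thus more than 3 times the highest control sample. From 14026 ± 3512 to 78304 ± 15332 (SD, n = 3 each), the ratio was 5.58 and the log2 difference 2.49 (standard error 0.44, limma adjusted p = 0.0135).

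VCL lies on chromosome 10 from 73995193 to 74121363 (plus strand). It had 3715, 3584 and 3626 normalized counts in control cells, the tightest control values of the 8 genes (coefficient of variation 1.83%), and 9957, 15278 and 16633 in depleted cells. The groups were well separated, with a ratio of means of 3.83. The log2 difference was 1.90 (standard error 0.32, limma adjusted p = 0.0108), the lowest adjusted p of the 8 genes.

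ZYX lies on chromosome 7 from 143381295 to 143391111. Its control samples measured 704, 1652 and 1284 normalized counts and its depleted samples 2249, 3352 and 3347. All depleted samples were above all control samples, and control replicate 1 was the lowest of all 6. The log2 difference was 1.36 (standard error 0.37), and the limma adjusted p of 0.0708 was not past the threshold.

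SVIL also lies on chromosome 10, from 29457338 to 29736959 (minus strand). Control cells held 675, 1198 and 1896 normalized counts of its RNA and depleted cells 4057, 3992 and 4105. Here the depleted samples agreed closely (coefficient of variation 1.40%) while the control samples were spread (48.7%), the reverse of VCL. The ratio of means was 3.22 and the log2 difference 1.81 (standard error 0.38, limma adjusted p = 0.0278).

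**Figure D2:**
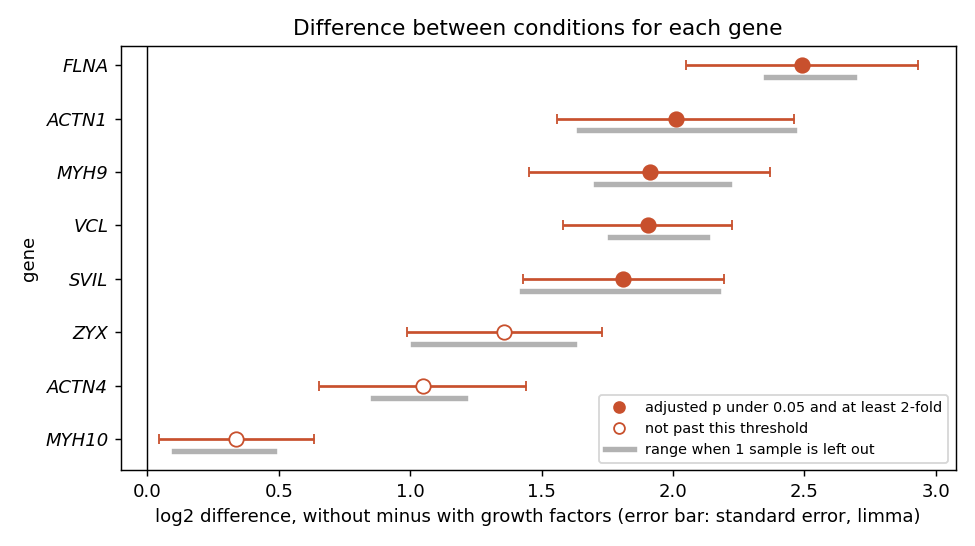
Log2 difference of each of the 8 genes, depleted minus control, with its standard error by limma, filled where the adjusted p is under 0.05 with at least a 2-fold change. Grey bars span the values obtained when 1 of the 6 samples is left out, from 0.10 to 0.48 for MYH10 and from 2.36 to 2.69 for FLNA, and none reaches 0.

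The depleted samples did not share one level. Depleted replicate 1 had 38.6% of the mean of the other depleted samples for ACTN1, 53.4% for MYH9, 62.4% for VCL, 67.1% for ZYX, 70.6% for ACTN4 and 72.5% for FLNA. SVIL, at 100.2%, and MYH10, at 107%, did not share this deficit. Across the 6 samples the log2 values of MYH9 and VCL had a Pearson correlation of 0.988, as did MYH9 and ACTN1, while the lowest correlation, between MYH10 and ACTN4, was 0.33. These values are descriptive, since the 6 samples fall into the 2 groups compared.

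The libraries also differed in how their values related to transcript length, and most of the 8 genes have long transcripts (2228 bases for ZYX to 8507 for FLNA). Over 13035 genes, the deviation of each library from the mean of the 6 was ranked against transcript length, and Spearman's correlation was lowest for control replicate 2 (-0.36) and highest for control replicate 3 (0.34). For the difference between conditions it was 0.02. When values were corrected for length and GC, FLNA, VCL, ACTN1 and SVIL were called by limma and the log2 difference of MYH9 was 1.67 (limma adjusted p = 0.0679). The libraries were strand-specific, but the strand setting of the counting is not given in the sources used here. Genes on the opposite strand overlap MYH10 (NDEL1, mean of 934 normalized counts over the 6 samples), VCL (AP3M1, 990), ZYX (EPHA1, 420) and ACTN4 (CAPN12, 45.4), and their part in the values of these genes was not tested.

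Paralogs were compared within each sample, where the size factor cancels. The pairs were MYH10 to MYH9 and ACTN4 to ACTN1. An exact permutation test of 3 against 3 samples cannot give a two-sided p below 0.1, and so neither pair could pass 0.05.

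Per base of transcript, MYH9 exceeded MYH10 by 13.9, 11.8 and 9.61 times in control replicates 1 to 3 and by 21.7, 37.2 and 51.2 times in depleted replicates 1 to 3. The groups did not overlap. On the log2 scale the ratio of MYH10 to MYH9 counts went from -3.49 ± 0.26 in control to -5.06 ± 0.63 in depleted samples (SD, n = 3 each), a difference of -1.57 with the smallest p possible (exact two-sided permutation p = 0.1, also 0.1 when adjusted over the 2 pairs).

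For the actinins, ACTN4 had 2.66, 2.10 and 2.0 times the level of ACTN1 per base in control cells. In depleted cells it had 1.71, 0.990 and 0.893 times the level, so that the paralogs were about equal in depleted replicates 2 and 3. The log2 ratio differed by -0.96 (exact two-sided permutation p = 0.1, adjusted p = 0.1).

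**Figure D3:**
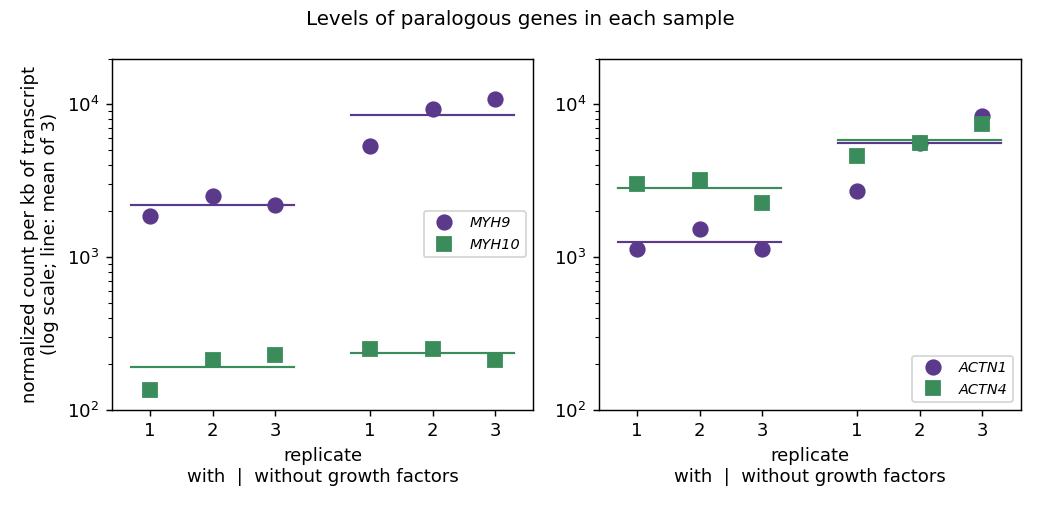
Normalized counts per kilobase of transcript (log axis) for MYH9 and MYH10 and for ACTN1 and ACTN4 in each replicate with and without growth factors, with lines at the group means. MYH9 lies above MYH10 in all 6 samples, and ACTN4 lies above ACTN1 in the 3 control samples and in depleted replicate 1.

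Ordered by mean level per kilobase, the 8 genes ran ACTN4 (2812 normalized counts per kilobase), MYH9 (2180), FLNA (1649), ACTN1 (1257), VCL (662), ZYX (545), MYH10 (191) and SVIL (151) in control cells. Neighbors in this order overlapped in their sample ranges, except that ACTN1 lay above VCL and ZYX above MYH10 in all samples. In depleted cells the order was FLNA (9205), MYH9 (8496), ACTN4 (5865), ACTN1 (5548), VCL (2539), ZYX (1339), SVIL (488) and MYH10 (236). From FLNA down to VCL each gene overlapped with the next, whereas VCL, ZYX, SVIL and MYH10 were separated from each other. SVIL and MYH10, which overlapped in control cells, therefore did not overlap in depleted cells.

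Other genes of the same machinery were examined in 7 lists, of which 101 genes were tested, 18 of them called higher and 2 lower by limma. Of all genes tested, 4.36% were called higher and 1.97% lower, and each list below is to be read beside these shares. The median log2 difference of the 101 genes was 0.60. Among the partners of the heavy chains, 2 of 6 genes were called higher and 0 lower. These were MYH14 and MYL9, a regulatory light chain that also serves smooth muscle myosin. MYL9 had 17.5, 14.6 and 12.8 normalized counts in control cells and 3089, 7261 and 12944 in depleted cells, 518 times the control mean (limma adjusted p = 3.2e-04). The call for MYH14 was lost without control replicate 1, depleted replicate 2 or depleted replicate 3, and MYH14 was not tested with a mean of at least 50. With the length and GC correction and the replicate block together, 1 of the 6 genes was called higher. The other light chain genes on the list, MYL6, MYL6B, MYL12A and MYL12B, were not called. For MYL6 and MYL12A every depleted sample was above every control sample (ratios of means 2.64 and 2.10), while the groups overlapped for MYL6B and MYL12B. At an unadjusted limma p under 0.05, 4 of the 6 genes were higher, against 11.4% of all genes tested.

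Of 18 genes that switch the motor on or off, 1 was called higher and 0 lower, near the shares of all genes tested (4.36% and 1.97%). The gene called was MYLK, the calcium-dependent kinase of the regulatory light chains. MYLK had 38.9, 46.3 and 31.5 normalized counts in control and 3757, 4207 and 4065 in depleted samples, with a log2 difference of 6.67 (limma adjusted p = 1.0e-04).

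Among 11 cross-linkers and gelsolin-villin family genes tested (of 15), GSN was called higher and VILL lower. GSN, the actin-severing protein gelsolin and a relative of supervillin, had a ratio of means of 5.17 (limma adjusted p = 0.00389). VILL, a villin-like gene, had 302, 420 and 86.6 normalized counts in control and 21.1, 8.52 and 11.2 in depleted samples (limma adjusted p = 0.0104), and its call was lost without control replicate 1 or depleted replicate 2. ACTN2, ACTN3 and VIL1 are not analysed here, and SCIN was below the minimum mean.

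Of 20 focal adhesion adaptors tested (of 21), 4 were called higher and 0 lower. Leaving out control replicate 1, depleted replicate 2 or depleted replicate 3 gave 2. In these fits 486 of 17142, 307 of 16913 and 334 of 16966 genes tested were called higher. The count was also 2 with the length and GC correction and the replicate block together (468 of 16782 genes called higher). It was 3 by edgeR (4.02% of all genes), with the replicate block, without the trend, with a mean of at least 50 or without control replicate 2. Without control replicate 3 it was 6, where 1379 of 16662 genes were called higher. DESeq2 gave 7, where it called 7.58% of all genes higher. TLN2, a talin and so a binding partner of vinculin, had a log2 difference of 3.15 (limma adjusted p = 0.00349). PARVA (1.69, limma adjusted p = 0.00926), LIMS2 (4.14, limma adjusted p = 0.0232, with control values of 3.76, 0 and 5.90) and ILK (1.51, limma adjusted p = 0.0332) encode members of the complex of integrin-linked kinase, parvin and PINCH proteins. LIMS2 passed the minimum mean only through its depleted samples and could be called only higher. TLN1, which is the more abundant talin here, had 4170, 4424 and 5550 normalized counts in control and 14957, 9265 and 10905 in depleted samples, and its limma adjusted p was 0.0539.

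Among LIM and Ena/VASP proteins of stress fibers, 9 of 25 genes were called higher and 0 lower. The count was 3 without depleted replicate 2 and 4 without depleted replicate 3, where 307 of 16913 and 334 of 16966 genes tested were called higher. The lowest adjusted p values belonged to TGFB1I1, a focal adhesion LIM protein (ratio of means 10.1, limma adjusted p = 0.00353), FHL1 (82.6, limma adjusted p = 0.00465, with control values of 1.25, 5.27 and 2.95, near the floor), NEXN, which binds actin filaments (26.4, limma adjusted p = 0.00465), and FHL2 (4.93, limma adjusted p = 0.0109). FHL1 passed the minimum mean only through its depleted samples and could be called only higher. The nearest paralogs of zyxin were not called. LPP had a log2 difference of 0.96 (limma adjusted p = 0.297) and TRIP6 of -0.11 (limma adjusted p = 0.879), with groups that overlapped in both.

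Of 18 actins and actin turnover genes, TMSB4X, which holds actin monomers, was called higher (ratio 7.33, limma adjusted p = 0.00965) and DIAPH2, a formin, lower (ratio 0.465, limma adjusted p = 0.0460). With 18 genes, 1 call in each direction differs little from the shares of all genes tested, 4.36% higher and 1.97% lower. The call for DIAPH2 was lost when any sample other than control replicate 3 was left out, with the same total per sample, quantile normalization or the replicate block (alone or with the length and GC correction), without the trend and by edgeR. ACTB and ACTG1, the non-muscle actins, had log2 differences of 1.19 and 1.33 with standard errors of 0.73 and 0.61 and were not called. Of the 3 genes tested among SRF and its MRTF cofactors, 0 were called by limma, 1 had an unadjusted p under 0.05, and edgeR called 0 and DESeq2 1. SRF itself had 505, 674 and 525 normalized counts in control and 841, 1412 and 1836 in depleted samples (log2 difference 1.2, limma adjusted p = 0.0819), without overlap between the groups.

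**Figure D4:**
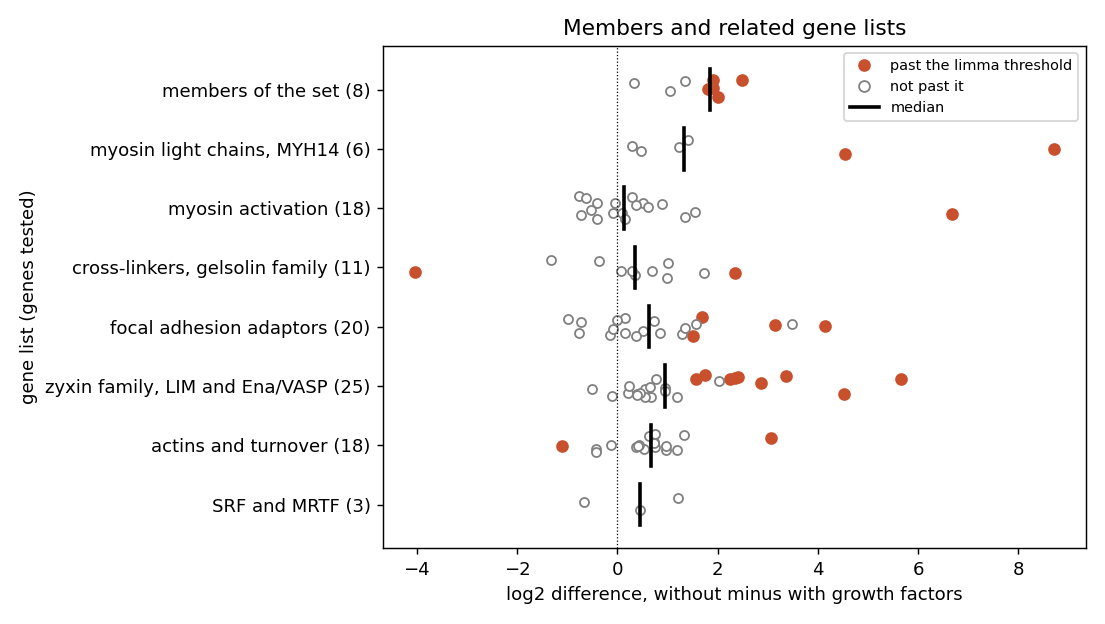
Log2 differences, depleted minus control, of the 8 genes and of 7 lists of related genes, each point 1 gene, filled where it is past the limma threshold, with a bar at each list's median. The 8 genes have a median of 1.86, and the highest points are MYL9 at 8.70 and MYLK at 6.67.

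For each of the 8 genes, up to 2 genes with the most similar log2 values over the 6 samples were sought among the 11688 genes whose mean reached 100 normalized counts. SRF was the nearest to ACTN1 (Pearson r = 0.996), followed by TUFT1. VCL was nearest to TCEAL9 and ACTG2, the enteric smooth muscle actin (r = 0.998 and 0.997). MYH9 was nearest to CACNG4 and TUBA1A, FLNA to CMTM3 and GNG2, SVIL to PALM, ZYX to SPINDOC and MTSS2, ACTN4 to MAN2B1 and SRRD, and MYH10 to ZNF213 and EPN1, with r of at least 0.981 throughout. These values over 6 samples in 2 groups are given only as a description.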

How the data were processed

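RNA-Seq values were available for 6 MCF10A samples, 3 with and 3 without growth factors, grouped by their labels. The authors deposited a signal per gene, the reads counted by HTSeq (Gencode v22) divided by DESeq2 size factors. Libraries were stranded, rRNA-depleted and read from one end over 100 bases, with TopHat2 mapping to hg38. The submitters' processing notes give cutadapt 1.6, HTSeq 0.6, DESeq2 1.8.1 and R 3.2.0. Every value was a whole multiple of the sample's value for 1 read (100% within 0.01 reads or a relative tolerance of 1e-06, whichever was larger), so whole reads were recovered. Symbols, coordinates, canonical transcript lengths and GC content were taken from Gencode v44 (hg38; 18913 of 19198 identifiers matched), and promoter windows from RefSeq (GRCh38.p14).

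Differences were tested with limma 3.58.1 in R 4.3.3 on log2(normalized count + 1), with the prior variance following a trend, for the 16988 genes whose mean reached 10. The step was tested on simulated data. edgeR 4.0.16, with TMM, and DESeq2 1.42.0 on the recovered reads were alternatives, since the deposited values are not counts. Paralog ratios were compared by exact permutation. No source says that a replicate number marks a shared batch, so samples were not paired. The members, lists and tests were chosen with earlier results of these data known. Besides the listed genes, those named are up to 4 called genes per list by adjusted p, the nearest paralogs and, chosen after their values were seen, TLN1, SRF, ACTB, ACTG1 and the light chains not called. Some genes that these rules would name are not reported here. MKL1 and MKL2 were read as MRTFA and MRTFB. Tables and figures used Python 3.11.15, pandas 2.3.3, scipy 1.17.1 and matplotlib 3.10.9.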

Additional observations from a re-analysis of the deposited data

How the results depend on the processing

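The number of genes called higher among the 8 was 5 with pseudocount 0.5, a mean of at least 50, the same total per sample or edgeR, and 4 with pseudocount 10, no filter, quantile normalization or the length and GC correction. It was 3 without the trend, 2 with the replicate block (VCL and SVIL), 1 with the correction and the replicate block together (SVIL), and from 0 to 5 when each sample was left out. None of the 8 genes was called lower in any of these. The settings that gave 4 or 5 with all 6 samples called from 526 of 13106 genes (mean of at least 50) to 945 of 19198 (no filter) higher. Of all genes, 681 of 16988 were called higher without the trend, 689 of 16988 with the replicate block and 468 of 16782 with the correction and block together. DESeq2 added ACTN4 and ZYX, and an adjusted p under 0.1 added ZYX. The log2 difference of MYH9 ranged from 1.61 to 2.21, of ACTN1 from 1.64 to 2.46, of FLNA from 2.19 to 2.69, of VCL from 1.76 to 2.13 and of SVIL from 1.43 to 2.17. Same-numbered samples did not deviate together (correlations of -0.07, -0.28 and -0.32, against up to 0.29 for other pairs), so the numbers were not taken as pairs. Fitted as pairs (replicate block), the ratios of paralogs kept their mean differences with the smallest exact sign-flip p of 0.25, and their direction did not change in any alternative run. Over all genes tested, 741 were called higher, 1379 without control replicate 3, 307 without depleted replicate 2 and 1287 by DESeq2, against 335, 1104, 138 and 825 called lower. The planned ratio of FLNC to FLNA was not run. The cause of these changes was not tested.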
